A study of Mus musculus with 18 samples.

Results

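The bile acid genes described here are 10 mouse genes of the synthesis, conjugation, transport and feedback control of bile acids, chosen by name: Cyp7a1, Cyp8b1, Cyp27a1, Cyp7b1, Slc27a5, Baat, Slc10a1, Abcb11, Nr1h4 and Nr0b2. RefSeq lists 21883 protein-coding genes on the mm10 chromosomes used, and each of the 10 was read over its span with 10 kb on both sides. The data are peak lists from 18 ChIP-seq libraries of liver. In the conditional knockout (KO, CTCF fl/fl Albcre+), Cre is driven by the albumin promoter, which is active in hepatocytes, so that other cells of the liver may keep Ctcf. In the controls (WT, CTCF fl/fl Albcre-) the floxed alleles are intact. All mice were C57BL/6 and 8 weeks old. There were 2 KO and 2 WT libraries for PPARg, 3 and 3 for H3K27ac, 2 and 2 for CTCF, and 1 and 1 for H3K4me3 and for H3K27me3. The CTCF libraries, PPARg KO 7 and KO 8 and PPARg WT 2 came from male mice that had been fasted overnight and were made by tagmentation. For all others, including WT 4 of PPARg, an adapter ligation kit was used and the sex of the mice is not stated, and their labels name liver as the tissue but carry a culture text on neural stem cells. Of 5 neural stem cell markers, Sox2, Pax6, Olig2 and Sox1 had no H3K27ac peak in any library. Nes, the remaining one, carried H3K27ac in every library, over 2926 to 9455 bp in KO and 2942 to 5750 bp in WT. All 5 were free of H3K4me3, whereas 6 of 6 hepatocyte markers carried both marks in every library. Nothing in the labels says that libraries of a group come from separate animals, so p-values measure the spread between these libraries.

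Bile acids are made from cholesterol in hepatocytes. In the classic pathway Cyp7a1, the rate-limiting cholesterol hydroxylase, acts first and Cyp8b1 sets the share of cholic acid. The alternative pathway runs through the sterol hydroxylases Cyp27a1 and Cyp7b1. The products are joined to coenzyme A by Slc27a5 and to taurine or glycine by Baat, pumped into bile by Abcb11 and taken up again from blood by Slc10a1. The bile acid receptor FXR (Nr1h4) induces SHP (Nr0b2), which represses Cyp7a1 and Cyp8b1. CTCF is a zinc-finger protein that sits at insulators and at the borders of chromatin domains. PPARg, a nuclear receptor that senses lipids, is best known from fat cells. H3K27ac marks active enhancers and promoters, H3K4me3 active promoters and H3K27me3 genes silenced by Polycomb.

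Peak lists carry no read depth, so the number of peaks and the length they cover stand in its place. The lists held 8131 to 51311 peaks. The covered length of the KO lists was 2.63 times that of the WT lists for PPARg, 1.16 times for H3K27ac, 0.756 times for CTCF, 0.879 times for H3K4me3 and 1.56 times for H3K27me3. Among the H3K27ac lists KO 4 was the longest, at 125.7 Mb, while the other 5 ran to between 78.2 and 91.5 Mb. PPARg WT 4 was called at a lower threshold, with a least −log10 q of 1.3 against 3.0 in the other 3 PPARg lists. At Ctcf itself, CTCF peaks covered 1459 and 1093 bp in KO against 1832 and 1397 bp in WT, which does not check the deletion, since peaks do not report the floxed part of the gene.

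PPARg peaks covered more of all 10 windows in every KO library than in any WT library. The mean covered length in KO was 2.08 times (Abcb11) to 4.71 times (Slc27a5) that in WT. The median was 2.79 over the 10 genes, against 2.96 over the 8545 genes tested. The 2.96 counts genes with no WT peak as infinitely high, whereas all 10 genes had WT peaks, so these medians are not alike. In limma, 9 of the 10 genes rose past an adjusted p of 0.05, all but Abcb11. Over all genes tested, which are those with PPARg peaks in at least 2 libraries, 61.6% rose and 0.609% fell. In 85.7% of them both KO values lay above both WT values, so the bile acid genes moved in the direction of most genes tested. In percentage points of the window, the median rise was 10.3 for the 10 genes against 1.68 for all genes tested. After each library was divided by its total covered length, none of the 10 passed (lowest adjusted p = 0.0646), and 7 were higher and 3 lower in KO.

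Among the synthesis genes, Cyp7a1 had 3694 and 6354 bp under PPARg peaks in KO 7 and KO 8, against 1759 and 761 bp in WT 2 and WT 4. The groups did not overlap, and the share of the window covered rose by 12.5 ± 3.37 percentage points (SE, limma adjusted p = 0.0342). Cyp8b1 had 4887 and 5921 bp in KO against 3010 and 1482 bp in WT (a rise of 14.4 ± 3.25 points, adjusted p = 0.0236). For Cyp8b1 the window also holds part of Ackr2, a chemokine receptor gene. Cyp27a1 had 5209 and 7162 bp in KO against 3012 and 1680 bp in WT (8.58 ± 2.02 points, adjusted p = 0.0257). Cyp7b1, whose long span is sparsely covered, had 4061 and 3032 bp in KO against 416 and 1122 bp in WT (1.45 ± 0.32 points, adjusted p = 0.0231). The 4 synthesis genes were thus 2.41 to 4.61 times as covered in KO as in WT, with no overlap between the groups at any of them.

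At the conjugation genes, Slc27a5 had the highest ratio of the 10, with 5603 and 5289 bp in KO against 1504 and 811 bp in WT (a rise of 14.4 ± 1.36 points, adjusted p = 0.0121). Baat had 5700 and 7786 bp in KO against 2249 and 2588 bp in WT (11.2 ± 2.17 points, adjusted p = 0.0176). Both windows reach into neighbouring genes, Zbtb45 and Zfp446 at Slc27a5 and Acnat1 and Mrpl50 at Baat. Of the transporters, Slc10a1 had 4976 and 4552 bp in KO against 1389 and 1451 bp in WT (9.41 ± 0.95 points, adjusted p = 0.0121). Abcb11 had 2131 and 2160 bp in KO against 1310 and 757 bp in WT, a difference of 0.89 ± 0.31 points that missed the threshold (adjusted p = 0.0610). Of the regulators, Nr1h4 had 7219 and 9019 bp in KO against 3399 and 2404 bp in WT (5.25 ± 0.95 points, adjusted p = 0.0159). Nr0b2 had 6639 and 6561 bp in KO against 3043 and 3284 bp in WT (14.7 ± 1.84 points, adjusted p = 0.0121), and its ratio of 2.09 was below that of the whole lists.

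**Figure D1:**
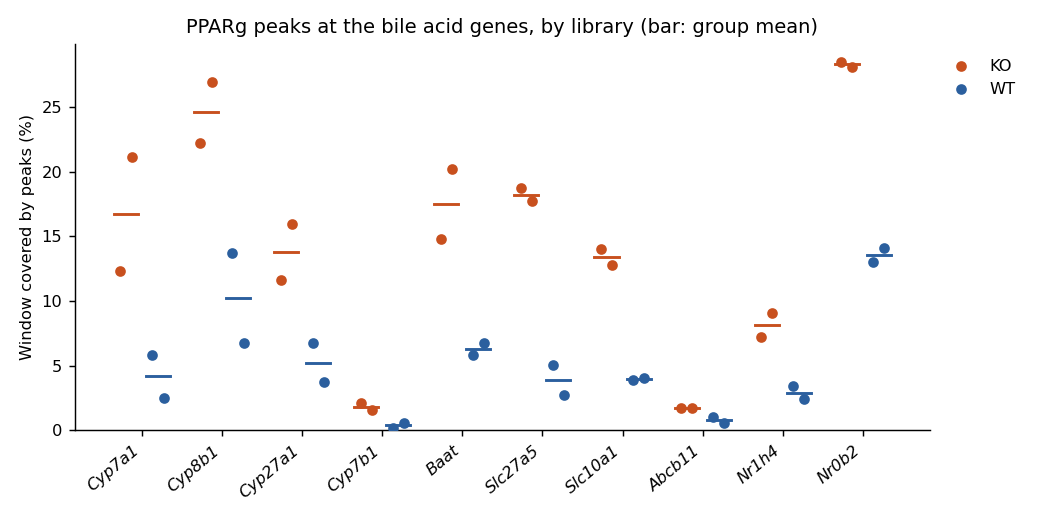
Share of each gene window covered by PPARg peaks (y axis, percent) at the 10 bile acid genes, with 1 point per library and a bar for the group mean, KO left of WT. At all 10 genes both KO points lie above both WT points; the KO mean is 28.3% against 13.6% in WT at Nr0b2 and 1.73% against 0.83% at Abcb11.

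The kit of WT 4 moves with the WT group, since both KO libraries are tagmentation libraries. The calling threshold of WT 4 was lower too, and male sex and overnight fasting are given for the tagmentation libraries alone. These differences of WT 4 cannot be told apart. Against WT 2 alone, the tagmentation control, the KO mean was 1.64 times (Abcb11) to 8.53 times (Cyp7b1) as high, with a median over the 10 genes of 2.62 and a whole-list ratio of 2.33. Against WT 4 alone the median was 3.33 and the whole-list ratio 3.04. All 10 genes kept a positive difference when WT 2 or WT 4 was left out, but 0 of 10 then passed limma (lowest adjusted p = 0.0676 without WT 2 and 0.0791 without WT 4), and 0 genes of the whole annotation passed either. Those fits rest on a lone WT library assumed to vary like the KO libraries. Without KO 7 or without KO 8, which leaves a lone KO library, all 10 differences stayed positive. Their medians were 12.3 and 8.32 points, against 1.98 and 1.97 points over all genes tested.

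Merged over the 4 libraries, the PPARg peaks at the 10 genes formed 70 regions, of which 22 were called in all 4 libraries, 15 in both KO and no WT library, 0 in both WT and no KO library, and 33 in another combination. Over the whole lists 29.8% of regions were shared, 17.9% were KO-only and 1.05% were WT-only. The fold of a peak, which is the peak caller's enrichment over its background, was higher in both KO libraries than in both WT libraries at 16 of the 22 shared regions, against 67.5% of shared regions in the whole lists. Every shared region overlapped an H3K27ac peak of some library, as did 14 of the 15 KO-only and 32 of the 33 other regions. A CTCF peak overlapped 1 of the 22 shared, 0 of the 15 KO-only and 1 of the 33 other regions. These overlaps were not measured over the whole lists, so whether the 10 genes differ in them is not known.

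The strongest PPARg site at the 10 genes lay 2456 bp outside Baat, at chr4:49484438-49486960 (mm10), with folds of 44.6 and 43.2 in KO against 11.7 and 10.0 in WT. At Abcb11 the region over the promoter (chr2:69341922-69343704) had folds of 39.6 and 42.7 in KO against 20.2 and 14.7 in WT. It was the one region at Abcb11 called in WT. At Cyp27a1 the region at the promoter (chr1:74711677-74713570) had folds of 35.6 and 41.0 in KO against 12.2 and 13.5 in WT, though the KO 7 peak did not reach the RefSeq promoter. The highest fold in WT, 17.5 and 16.5, stood at an intragenic region (chr1:74718513-74722606) with 35.1 and 34.3 in KO. At these sites of the 3 genes both KO folds were above both WT folds.

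The leading sites of 5 other genes reached lower folds in KO, of 10.7 to 25.3. At Slc10a1 the highest folds, 22.04 and 25.3 in KO against 17.0 and 13.2 in WT, were 6680 bp upstream of the start site (chr12:80975385-80976987). At Slc27a5 the leading region inside the gene (chr7:12996653-12997844) had 18.5 and 19.7 in KO against 9.03 and 6.47 in WT, a ratio of means of 2.46 that was above that of Abcb11, 2.36. At Cyp8b1 it lay 10186 bp downstream of the start site (chr9:121901988-121906119), with 24.2 and 21.9 in KO against 18.1 and 19.4 in WT. That region reaches past the edge of the window, and the highest fold of WT 4 within the window was 12.4. At Nr1h4 the region over the promoter (chr10:89504393-89507096) had 14.0 and 17.97 in KO against 7.97 and 6.47 in WT, and at Cyp7b1 an intragenic region (chr3:18191346-18192432) had 13.5 and 10.7 in KO against 5.84 and 7.06 in WT.

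The PPARg fold was not higher in KO everywhere. The shared region of Cyp7a1, over the upper end of its span (chr4:6275337-6276326), had folds of 7.51 and 11.2 in KO against 13.3 and 11.2 in WT. Of the 4 other regions of Cyp7a1, 3 were called in both KO libraries and 1 WT library, and 1 in 1 KO and both WT libraries. The highest fold at Cyp7a1 in KO, 9.52 and 16.3, was inside the gene (chr4:6269822-6272042). At Nr0b2 the region over the promoter (chr4:133551910-133553563) had 20.4 and 15.3 in KO against 18.7 and 18.9 in WT, and the leading region over the downstream end (chr4:133556493-133558177) had 43.6 and 25.99 in KO against 25.9 and 21.2 in WT. At these sites the groups overlapped or nearly met.

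**Figure D2:**
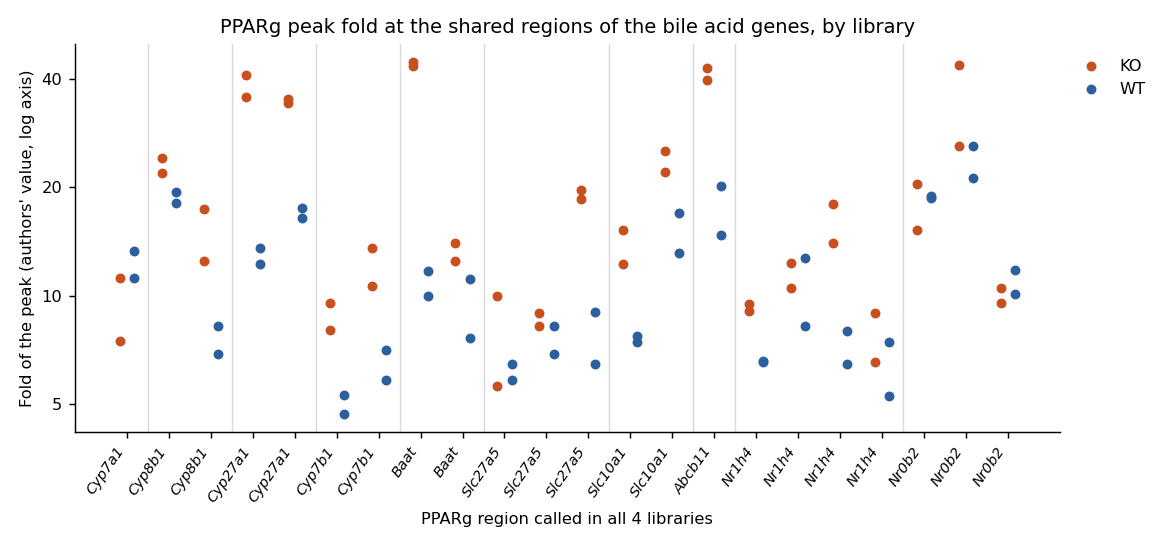
Fold of the PPARg peak (y axis, log scale, the authors' value) at the 22 regions of the bile acid genes called in all 4 libraries, ordered by gene and, within a gene, by position, with 1 point per library, KO left of WT. Both KO points lie above both WT points at 16 regions, with the widest gap at Baat, and the groups overlap or cross at the other 6, which are the region of Cyp7a1, 2 of the 3 of Nr0b2, 2 of Nr1h4 and 1 of Slc27a5.

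The 15 KO-only PPARg regions were weaker, with folds of 4.49 to 9.02. Baat had 4, at chr4:49480516-49481067, chr4:49481137-49482253, chr4:49482561-49483016 and chr4:49505966-49506456. Cyp8b1 had 2 (chr9:121914921-121915513 inside the gene and chr9:121921406-121921655), Nr0b2 had 2 (chr4:133554136-133555878 inside the gene and chr4:133559532-133560478), and Slc27a5 had 2 (chr7:12993023-12993716 inside the gene and chr7:13001460-13002100). Nr1h4 had 2 intragenic ones (chr10:89491962-89492514 and chr10:89522410-89523149), the second with the highest fold of the 15, 9.02 and 7.86 in KO 7 and KO 8. Slc10a1 (chr12:80955406-80955900), Abcb11 (chr2:69289226-69289602) and Cyp7b1 (chr3:18166250-18166701) had 1 intragenic region each, and Cyp7a1 and Cyp27a1 had none. With the lists cut to equal length the count of KO-only regions at the 10 genes was 4.

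RefSeq promoters on GRCm38.p6, from 250 bases before to 50 bases after a start site, were at hand for 6 of the 10 genes. They were searched on both strands for AGGTCA, the core letters bound by nuclear receptors, alone and as a direct repeat (DR1, the PPAR and HNF4A type) or an inverted repeat (IR1, the FXR type) with 1 base between, for TCAAGGNCA, the NR5A2 type, for CAAAGTCCA, an HNF4A type, and for AGGGGGC, a core of the CTCF motif. The 4 promoters with a match are shown, since each holds a searched motif and was overlapped by a PPARg peak in both KO libraries. Capitals mark the match: AGGTCA or its reverse complement TGACCT at Abcb11 (minus strand, chr2:69342567-69342866), Nr1h4 (minus strand, chr10:89506609-89506908) and Slc10a1 (minus strand, chr12:80968030-80968329), and CAAAGTCCA at Cyp8b1 (minus strand, chr9:121916256-121916555).
Abcb11: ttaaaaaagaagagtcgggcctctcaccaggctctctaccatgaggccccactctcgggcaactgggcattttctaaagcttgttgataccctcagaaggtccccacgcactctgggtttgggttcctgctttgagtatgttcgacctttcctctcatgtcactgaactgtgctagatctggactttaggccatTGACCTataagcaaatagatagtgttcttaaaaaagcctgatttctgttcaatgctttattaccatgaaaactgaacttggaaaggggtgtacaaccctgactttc
Nr1h4: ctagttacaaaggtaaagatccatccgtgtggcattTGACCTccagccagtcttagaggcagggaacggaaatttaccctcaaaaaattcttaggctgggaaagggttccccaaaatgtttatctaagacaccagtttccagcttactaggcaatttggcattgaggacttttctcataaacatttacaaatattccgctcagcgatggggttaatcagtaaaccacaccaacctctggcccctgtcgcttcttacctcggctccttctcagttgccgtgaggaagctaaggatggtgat
Slc10a1: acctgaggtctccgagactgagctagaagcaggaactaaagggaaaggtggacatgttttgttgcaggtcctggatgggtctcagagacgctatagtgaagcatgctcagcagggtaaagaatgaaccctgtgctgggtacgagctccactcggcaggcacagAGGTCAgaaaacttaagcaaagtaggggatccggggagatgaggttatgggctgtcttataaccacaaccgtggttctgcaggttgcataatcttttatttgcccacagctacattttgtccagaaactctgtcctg
Cyp8b1: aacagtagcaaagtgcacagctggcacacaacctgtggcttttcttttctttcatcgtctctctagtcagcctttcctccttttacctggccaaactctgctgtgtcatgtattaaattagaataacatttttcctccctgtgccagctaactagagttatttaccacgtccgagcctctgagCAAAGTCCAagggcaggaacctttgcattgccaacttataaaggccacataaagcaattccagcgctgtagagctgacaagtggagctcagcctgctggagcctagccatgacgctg

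The match began 56 bases before the start site at Abcb11, 214 at Nr1h4, 87 at Slc10a1 and 67 at Cyp8b1. No promoter of the 6 genes held the DR1, the IR1, the NR5A2 or the CTCF letters. Of all 32851 promoters, 16.3% held AGGTCA, 0.0396% the DR1, 0.0091% the IR1, 1.62% the NR5A2, 0.475% the CAAAGTCCA and 10.6% the CTCF letters. The Abcb11, Nr1h4 and Slc10a1 windows shown were under a PPARg peak in all 4 libraries, with both KO folds above both WT folds. The Cyp8b1 window was under one in 3, with folds of 7.01 and 10.1 in KO and 6.91 in WT 2 and no call in WT 4. PPARg peaks also lay over the promoters without a match. These were Nr0b2 in all 4 libraries and the upstream promoter of Slc10a1 in both KO libraries and no WT library. Cyp27a1 was under one in KO 8, WT 2 and WT 4. The share of all promoters under a PPARg peak was not measured.

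H3K27ac coverage of the 10 genes in KO was 0.548 (Cyp7b1) to 1.05 (Baat) times that in WT, against 1.16 over the whole lists. In limma 0 of 10 genes passed, as did 0 of all 14923 tested (0.0% either way, with 969 genes higher and 90 lower at an unadjusted p under 0.05). The median difference was −0.19 percentage points over the 10 genes and 0.92 over all genes tested, and 5 of the 10 were higher and 5 lower in KO. After division by the total covered length, which moved the median of all genes to −0.08, all 10 were lower in KO with 0 past the test (lowest adjusted p = 0.138).

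Cyp7b1 had 12588, 15613 and 18203 bp of H3K27ac in KO against 27416, 27106 and 30092 bp in WT. Every KO value was below every WT value, which held for 1 of the 10 genes and for 1.47% of genes tested, and the mean in KO was 0.548 times that in WT. The difference was −6.64 ± 1.54 points (SE, limma unadjusted p = 0.00336, adjusted p = 0.614) and stayed between −7.35 and −5.89 when any 1 library was left out. One intragenic region, chr3:18209097-18210922, was called in all 3 WT libraries with folds of 3.25, 2.82 and 2.97 and in 0 of the KO libraries. It is the single H3K27ac region of the 53 at the 10 genes that split by genotype in this way, against 0.173% of regions in the whole lists. The leading regions of Cyp7b1 were called in all 6 libraries, and at the upper end of its span (chr3:18241030-18248012) the mean fold was 5.74 in KO and 5.36 in WT.

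Cyp8b1 lay within 1 broad H3K27ac domain, and its window was fully covered, at 21950 bp, in all 3 WT libraries. In KO it was covered over 18907, 19199 and 21950 bp (a difference of −8.80 ± 3.90 points, adjusted p = 0.689). Slc10a1 had 10477, 15054 and 14614 bp in KO against 14520, 23628 and 16156 bp in WT, where WT 2 sets the size of the difference (−13.3 ± 7.16 points, adjusted p = 0.693, and −5.51 without WT 2). Cyp7a1 had 9005, 16730 and 16845 bp in KO against 13874, 19424 and 10598 bp in WT. At these 3 genes the groups overlapped or touched.

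At the remaining genes the mean covered length in KO was 0.831 (Abcb11) to 1.05 (Baat) times that in WT. Abcb11 had 2363, 2508 and 3708 bp in KO against 2999, 3690 and 3640 bp in WT, nearly all of it in 1 domain over the promoter. The values of Nr1h4, the receptor gene, were 42506, 48235 and 59800 bp in KO against 49197, 50089 and 50880 bp in WT, so that KO 4 held both the highest value and most of the spread. The ratios were 1.01 for Nr0b2, 1.05 for Cyp27a1 and 1.002 for Slc27a5. Without KO 4, 9 of the 10 genes were lower in KO, and the median over all genes tested was 0.01.

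**Figure D3:**
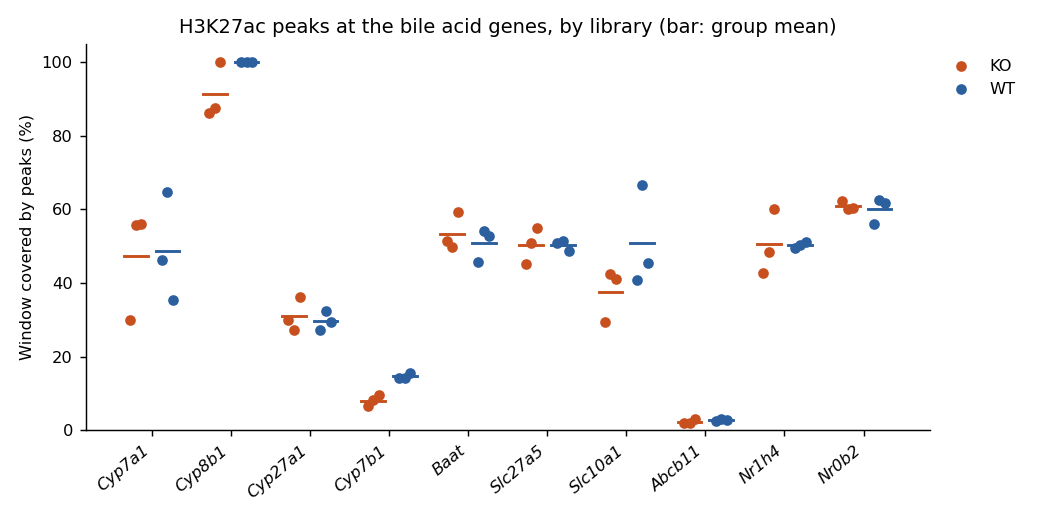
Share of each gene window covered by H3K27ac peaks (y axis, percent) at the 10 bile acid genes, with 1 point per library and a bar for the group mean, KO left of WT. The 3 KO points lie below the 3 WT points at Cyp7b1 (means of 8.06% and 14.7%), the 3 WT points of Cyp8b1 stand at 100%, and the groups overlap or touch at the other 9 genes.

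Peak height was lower in KO at several domains. Of 27 H3K27ac regions called in all 6 libraries, 9 had all 3 KO folds below all 3 WT folds and 0 had them above, against 12.4% and 4.57% of shared regions in the whole lists. The domain over the Nr0b2 gene (chr4:133551359-133565288) had folds of 5.68, 4.72 and 4.41 in KO against 6.05, 7.06 and 7.12 in WT. The Abcb11 promoter domain (chr2:69340262-69344085) had 5.51, 4.51 and 5.16 in KO against 6.20, 7.03 and 6.17 in WT, and the Slc10a1 promoter domain (chr12:80962112-80970175) had 6.17, 6.08 and 5.33 in KO against 6.56, 7.59 and 7.55 in WT. The other 6 were at Baat (1), Nr1h4 (2) and Cyp7b1 (1), with a further one each at Nr0b2 and Slc10a1. The median fold of the KO lists was 0.951 times that of the WT lists, and KO 4 had the lowest median fold, 2.91, against 3.26 to 3.58 in the other 5.

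Of the marker lists of other liver cells, the cholangiocyte sums were higher in every KO library than in any WT library, and those of the other 4 cell types overlapped between genotypes. H3K27ac over 6 stellate cell markers summed to 36286 to 83008 bp in KO against 18697 to 37025 bp in WT, with all 6 covered in 3 KO and 2 WT libraries. Over 5 lymphocyte markers it was 4176 to 17500 bp in KO against 5402 to 5729 bp in WT (4 markers covered in each KO and 2 or 3 in each WT library, Cd3e at 0 in all). Over 6 Kupffer cell markers the sum was 4819 to 14400 bp in KO against 3703 to 8478 bp in WT (2 to 4 markers covered in KO and 1 to 4 in WT, Marco at 0 in all). Over 6 endothelial markers it was 84681 to 149661 bp in KO against 88980 to 104553 bp in WT, with 6 of 6 covered throughout, and over 6 cholangiocyte markers 3281 to 4929 bp in KO against 2143 to 2461 bp in WT (2 covered in each KO and 1 or 2 in each WT library, with Krt19, Krt7, Epcam and Cftr at 0 in all). Over 6 hepatocyte markers it was 108323 to 123657 bp in KO against 105307 to 127252 bp in WT. KO 4 held the highest value of each of these lists except that of hepatocytes. The part of cell makeup in the values of the bile acid genes was not tested, and in whole liver fewer hepatocytes and less mark per hepatocyte cannot be told apart.

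CTCF had no peak at 5 of the 10 genes in any of the 4 libraries, Cyp7a1, Cyp8b1, Nr0b2, Slc10a1 and Baat, against 39.2% of all genes, and Abcb11 had 1, of 185 bp, in KO160. The 4 genes that could be tested were all lower on average in KO. Their median difference was −0.56 points, against −0.38 points over the 12292 genes tested. In limma 0 of the 4 passed, against 1.68% of all genes tested lower and 0.00814% higher. At Cyp7b1 CTCF peaks covered 250 and 502 bp in KO against 1232 and 1365 bp in WT, so the groups did not overlap, which 40.4% of genes tested shared (−0.48 ± 0.13 points, unadjusted p = 0.00915, limma adjusted p = 0.155). An intragenic site at chr3:18237216-18237691 was called in both WT libraries (folds of 6.49 and 6.14) and in neither KO library, like 9.87% of CTCF regions in the whole lists, while a second one at chr3:18158174-18158929 was called in all 4, with 6.63 and 8.86 in KO against 10.3 and 7.26 in WT. The site called in WT alone was 26293 bp from the H3K27ac region of Cyp7b1 that was also called in WT alone.

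Cyp27a1 had 384 and 564 bp in KO against 1346 and 467 bp in WT, with a leading intragenic site (chr1:74723477-74724423) at folds of 8.52 and 9.44 in KO against 12.8 and 10.9 in WT. Nr1h4 had 739 and 809 bp in KO against 1038 and 799 bp in WT, all of it in 1 intragenic site (chr10:89461354-89462535) with folds of 10.2 and 13.9 in KO against 11.4 and 15.6 in WT. Slc27a5 had 807 and 433 bp in KO against 712 and 914 bp in WT, with its leading site inside the gene (chr7:12991870-12992898) at 7.50 and 8.26 in KO against 7.22 and 7.35 in WT. The 3 genes overlapped between genotypes in covered length, and their leading sites were called in all 4 libraries.

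**Figure D4:**
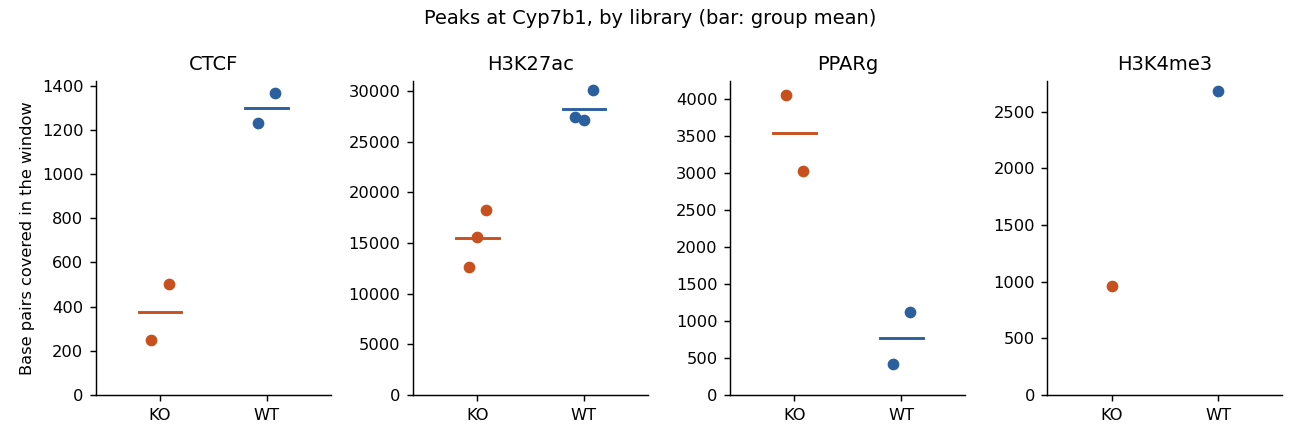
Base pairs of the Cyp7b1 window covered by peaks (y axis, from 0, 1 scale per panel) for CTCF, H3K27ac, PPARg and H3K4me3, with 1 point per library and a bar for the group mean where there is more than 1 library, KO left of WT. KO lies below WT without overlap for CTCF and H3K27ac and above it without overlap for PPARg; for H3K4me3, with 1 library each, the KO point is the lower one.

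H3K4me3 covered less of all 10 windows in KO than in WT, with 1 library for each, so no difference has a replicate check. The ratio of KO to WT was 0.357 (Cyp7b1) to 0.937 (Cyp27a1), with a median of 0.693, against 0.879 over the whole lists. Over 13797 genes the median was 0.898, which counts genes with no WT peak as infinitely high and those with no KO peak as 0. Cyp7a1, Cyp8b1, Cyp7b1 and Abcb11 were more than 1.5-fold lower in KO, as were 10.5% of genes, and 0 of the 10 were more than 1.5-fold higher, against 9.14% of genes. Fewer base pairs in KO were found at 10 of 10 genes here and at 69.6% of genes overall.

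Cyp7a1 had 1533 bp in KO 4 against 4144 bp in WT 2, and Cyp7b1 959 bp in KO against 2684 bp in WT. Cyp8b1 had 2438 bp in KO against 4465 bp in WT, and in the region that takes in the promoter and gene (chr9:121912698-121916607) the fold was 7.13 in KO, from a peak that did not reach the promoter, against 16.7 in WT, from one that did. Abcb11, the canalicular pump, had 1168 bp in KO against 2435 bp in WT, and its single promoter region (chr2:69340530-69342964) had a fold of 7.07 in KO against 19.97 in WT, a ratio as low as that of 0.143% of the 12566 regions called in both libraries. These 4 genes were those past 1.5-fold, and Nr0b2, with 3136 bp in KO against 4667 bp in WT, a ratio of 0.672, fell just short of it.

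The remaining 5 genes had ratios of 0.715 (Nr1h4) to 0.937. Slc10a1 had 6702 bp in KO against 9363 bp in WT, and its promoter region (chr12:80964470-80968832) had a fold of 7.54 in KO against 13.9 in WT, whereas the region with the highest fold in that window (chr12:80944975-80948765, 17.4 in KO and 17.9 in WT) lies on the side of the neighbour Srsf5. Nr1h4 had 4702 bp in KO against 6578 bp in WT. Its promoter region (chr10:89503261-89506987) had a fold of 11.3 in KO against 13.0 in WT, and a second region (chr10:89531335-89533888) had 10.3 in KO against 16.7 in WT. Slc27a5 had 4591 bp in KO against 5965 bp in WT, Baat 4189 bp in KO against 5710 bp in WT and Cyp27a1 3011 bp in KO against 3213 bp in WT, with promoter folds at Cyp27a1 (chr1:74712850-74716062) of 9.90 in KO against 15.5 in WT. At Nr0b2 the highest fold in KO, 12.3 against 8.98 in WT, was outside the gene (chr4:133544875-133546283), on the side of Nudc, and the region that takes in its promoter (chr4:133553137-133555278) had 8.01 in KO, from a peak that did not reach the promoter, against 7.90 in WT, from one that did.

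Of 30 H3K4me3 regions at the 10 genes 18 were called in both libraries, 2 in KO alone and 10 in WT alone, against 69.8%, 14.5% and 15.7% of regions in the whole lists. At 16 of the 18 the fold was lower in KO, against 66.3% over the whole lists, where the median ratio of KO to WT was 0.904. The KO-only regions were at Cyp27a1 (chr1:74716201-74716463) and Cyp8b1 (chr9:121924237-121924417), both with a fold of 4.71. The WT-only regions had folds of 3.69 to 5.32. They were at Cyp7a1 (chr4:6271142-6271571 and chr4:6271938-6272378), Cyp8b1 (chr9:121923405-121923745 and chr9:121923931-121924144), Slc10a1 (chr12:80962745-80963500 and chr12:80963797-80964358), Nr0b2 (chr4:133555449-133555686), Nr1h4 (chr10:89502682-89502978), Baat (chr4:49485712-49486187) and Slc27a5 (chr7:13001334-13001909). The RefSeq promoters of Cyp8b1 and Nr0b2 and the upstream one of the pair at Slc10a1 had no H3K4me3 peak in KO 4 but had one in WT 2.

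Hepatocyte markers also had fewer base pairs of H3K4me3 in KO. The mark over the 6 markers summed to 22089 bp in KO 4 against 33337 bp in WT 2, with 6 of 6 covered in both. Over the 6 stellate markers the sum was 5341 bp in KO (4 covered) against 3299 bp in WT (3 covered), over the 6 endothelial markers 6978 bp in KO (6 covered) against 6401 bp in WT (4 covered), and over the 5 lymphocyte markers 2429 bp in KO (2 covered) against 2460 bp in WT (1 covered). Over the 6 cholangiocyte markers the sum was 1953 bp in KO (2 covered) against 1793 bp in WT (1 covered). The 6 Kupffer cell markers were at 0 in both. The part of cell makeup in the H3K4me3 values was not tested.

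**Figure D5:**
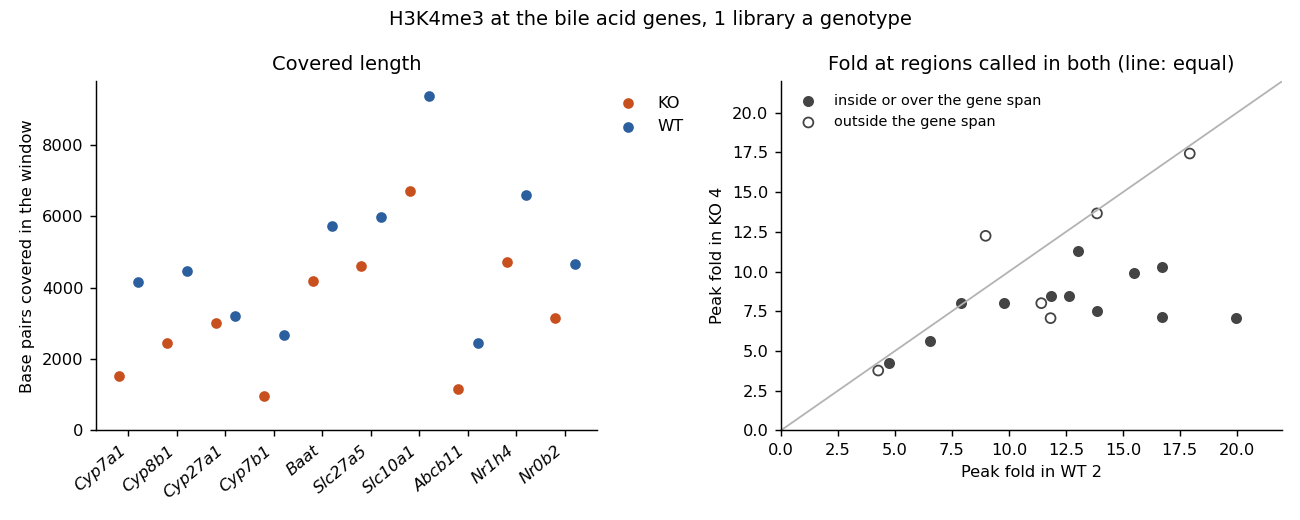
Left, base pairs of each gene window covered by H3K4me3 peaks (y axis) in KO 4 and WT 2, KO left of WT, 1 library each; right, the peak fold in KO 4 (y axis) against that in WT 2 (x axis) at the 18 regions of the bile acid genes called in both, with a line of equal fold and open circles for regions outside the gene spans. KO is below WT at all 10 genes on the left, and 16 of 18 regions lie below the line on the right, with Abcb11 (7.07 in KO and 19.97 in WT) farthest from it.

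H3K27me3, the Polycomb mark, had 0 peaks at all 10 genes in both the KO and the WT library, as at 81.0% of all genes. Of the peaks in these lists, 97.1% in KO and 98.6% in WT had a −log10 q below 3, so the mark was weakly called throughout.

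A wider list of 42 bile acid genes gave the setting. For PPARg 29 of the 35 with enough coverage to test rose in limma and 0 fell, against 61.6% and 0.609% of all genes. In all 35 both KO values lay above both WT values, against 85.7%, with a median ratio of 2.36 against 2.96 over all genes tested. Both medians count genes with no WT peak as infinitely high. Those that rose were the synthesis and conjugation genes Hsd3b7, Akr1c6, Scp2, Acox2, Hsd17b4, Cyp39a1, Cyp2c70, Ephx1 and Sult2a8, the transporters Slco1a1, Slco1a4, Slco1b2, Slc10a2, Slc51b, Abcc2, Abcc3, Abcc4, Abcb4, Abcg5 and Abcg8, and the regulators Nr5a2, Hnf4a, Nr1h3, Ppara, Nr1i2, Nr1i3, Prox1, Nr1d1 and Dbp. Ppara, the fatty acid receptor of hepatocytes, rose by 16.3 ± 2.20 points, with 26541 and 29425 bp in KO against 13379 and 12540 bp in WT. Scp2, which encodes the peroxisomal thiolase of side chain shortening, had 27691 and 29028 bp in KO against 8871 and 9302 bp in WT. The xenobiotic receptor genes Nr1i3 and Nr1i2 rose by 13.3 ± 3.25 and 11.4 ± 1.57 points.

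For H3K27ac 0 of the 38 wider genes tested passed limma. Of the 7 whose groups did not overlap, those with the widest differences were Prox1, a corepressor of bile acid synthesis, at 29502, 33326 and 34878 bp in KO against 36675, 42308 and 38605 bp in WT, and Slc10a2, the bile acid importer of gut and bile duct, at 7762, 8043 and 9734 bp in KO against 4605, 5834 and 4016 bp in WT. Next came Slco1a1, a hepatocyte organic anion importer, at 5538, 1384 and 5246 bp in KO against 6686, 8941 and 8809 bp in WT. Cyp39a1, the 24-hydroxycholesterol hydroxylase, had 4351, 5700 and 7557 bp in KO against 1336, 1670 and 802 bp in WT (limma adjusted p = 0.517). In 4 of the 38 every KO value was above every WT value, against 11.1% of genes tested, and in 3 every one was below, against 1.47%.

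For CTCF 1 of 33 wider genes passed. Amacr, which racemises bile acid intermediates, had 0 bp in both KO libraries against 564 and 744 bp in WT (−1.88 ± 0.28 points, limma adjusted p = 0.0435), a call kept in 4 of 8 alternative fits (adjusted p of 0.0226 to 0.419). Fgf15, the gut hormone that represses bile acid synthesis, had 982 and 2206 bp in KO against 3074 and 2826 bp in WT. Gpbar1, a membrane bile acid receptor, had 520 and 425 bp in KO against 1215 and 938 bp in WT, and Cyp46a1, a cholesterol hydroxylase, had 1708 and 1713 bp in KO against 2864 and 2215 bp in WT. None of these 3 passed the test, and 14 of the 33 had both KO values below both WT values, as did 40.4% of genes tested.

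H3K4me3 was lower in KO at 32 of the 37 wider genes with a peak, against 69.6% of all genes with a peak, with a median ratio of 0.746. Of the 37, 11 were past 1.5-fold lower, against 10.5% of genes, and 2 past 1.5-fold higher, against 9.14%. The widest differences were at Sult2a8, a bile acid sulfotransferase (701 bp in KO against 5286 bp in WT), Hnf4a, the hepatocyte nuclear receptor (5679 bp in KO against 10098 bp in WT), Slco1b2 (2825 bp in KO against 6050 bp in WT) and Ppara (7703 bp in KO against 10439 bp in WT). H3K27me3 peaks were found at 4 of the 42. The export pump gene Abcc4 had 226 bp in KO against 2655 bp in WT. For the vitamin D receptor gene Vdr it was 817 bp in KO against 1712 bp in WT. Cyp46a1 had 419 bp in KO and none in WT, and Fgf15 had 1783 bp in KO against 1365 bp in WT. These values rest on weakly called lists with 1 library a genotype.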

How the data were processed

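Peak lists of 18 ChIP-seq libraries, 1 per library, were used as deposited. Alignment and peak calling were the authors'. Per the submitters' processing notes the build was mm10 and the tools included MACS2 2.1.2, BWA 0.7.12, deepTools 3.1.3 and Picard 1.77; the control for peak calling is not given in the sources used here. For each peak the authors deposited its fold enrichment (a ratio) with −log10 values of p and q. Thresholds and library kits differed between lists, which moves covered lengths. No 2 lists of a group shared more than 0.0215% of their intervals, so none was a copy.

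Chromosomes 1 to 19, X and Y were used, and an interval repeated for several summits was counted once. RefSeq gene spans of the same build with 10 kb either side were the windows, and all listed genes matched; some cell type markers are not reported here. The percentage of each window covered was fitted with limma 3.58.1 in R 4.3.3 (eBayes with trend, no scaling, KO against WT within a target) over all protein-coding genes covered in at least 2 libraries, with Benjamini-Hochberg adjustment and a threshold of 0.05. The fit was also run on simulated data in which few genes were shifted. That setting differs from PPARg, where 61.6% of genes tested rose, so it does not check that case. Targets with 1 library a genotype were described, with 1.5-fold as the mark of a call. Peaks of a target that overlapped by at least 1 bp were merged into regions. Motifs were searched in the RefSeq promoters; the gene table has no strand, so start sites come from the promoter table. Python 3.11.15 was used.

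The genes and lists were chosen with earlier results of these data known. Of the wider list, the genes named were those past the test or, where few passed, up to 4 whose groups did not overlap, by size of change, and for targets without replicates the 4 with the largest change in covered length. Region intervals are unions over libraries. Replicate numbers 2 and 4 occur in both genotypes for H3K27ac, but nothing says they mark shared animals. Alternatives were other windows, thresholds, scalings, filters and left-out libraries.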

Additional observations from a re-analysis of the deposited data

How the results depend on the processing

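With covered lengths divided by the list total, 0 of the 10 genes and 983 genes overall passed for PPARg, and the differences turned negative for Cyp8b1 (−1.11 points), Nr0b2 (−5.70) and Abcb11 (−0.29). They turned negative for H3K27ac at Cyp27a1 (−2.74), Nr0b2 (−6.47), Nr1h4 (−7.35), Baat (−4.34) and Slc27a5 (−6.69), and positive for CTCF at Nr1h4 (0.093). With lists of equal length 5 of the 10 genes and 2517 genes overall passed for PPARg, 4 PPARg regions were KO-only, and the H3K27ac differences of Nr1h4 (−0.90) and Slc27a5 (−0.72) turned negative. At the stricter threshold the PPARg figures were 3253 genes, 8 KO-only and 9 shared regions, with the direction turned for Slc27a5 H3K27ac (−3.52) and CTCF (0.88). With 1 kb windows 3438 genes passed for PPARg, and H3K27ac turned at Cyp7a1 (2.00) and Nr1h4 (−0.56). With 5 kb windows 7 of the 10 genes were past 1.5-fold for H3K4me3, with 1 library a genotype. Of all 13265 genes with a peak, 2763 were past it as well, 1309 higher and 1454 lower in KO. On the log2 scale (pseudocount 100 bp) H3K27ac turned at Nr1h4 (−0.011) and Slc27a5 (−0.0018). For CTCF 0 genes overall passed when scaled, at equal length, on the log2 scale, without the filter or without the trend. Where these values moved, the cause was not tested.

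Leaving out 1 library gave 0 to 9 of the 10 genes and 0 to 4182 genes overall for PPARg (0 without either WT library), 20 to 26 KO-only PPARg regions, and 0 to 1115 genes overall for CTCF (741 without KO160, 1115 without KO163, 0 without WT164 or WT165). The counts of KO-only PPARg regions rose above the 15 of the main setting by construction, since fewer libraries then had to meet the rule. H3K27ac differences that crossed 0 ranged from −8.18 to 7.18 for Cyp7a1, −1.16 to 3.37 for Cyp27a1, −1.27 to 2.02 for Nr0b2, −4.71 to 3.99 for Nr1h4, −0.32 to 4.45 for Baat and −2.25 to 2.69 for Slc27a5, and for CTCF at Cyp27a1 from −1.95 to 0.016. With a replicate block for H3K27ac, 30 of all genes tested and 0 of the 10 passed, and Nr0b2 was at −0.87. The deviations of same-numbered libraries from their group means had r of −0.23 and −0.20 over 14925 genes. With 3 libraries a group, these values cannot decide whether the numbers mark pairs, and the main fit used no block. All other per-gene differences of the 10 kept their direction under the alternatives run; the count of PPARg genes among the 10 was otherwise 6 to 9. Read depth is not carried by peak lists, so its part in these values was not tested.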
